A study of Homo sapiens with 19 samples.

Results

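The genes of glycolysis and of the cellular response to low oxygen were followed in RNA-seq libraries of HepG2, a human liver cancer cell line. The set was a list of 36 gene symbols, chosen by function with earlier results of these data known. All 36 were found among the 34825 symbols of each of the 2 deposited expression tables. One table held 9 libraries: cells given the control siRNA labelled NTG, siINO80#1 or siINO80#2, with 3 libraries in each group and no drug or vehicle on their labels. The other held 10 libraries of cells given NTG or siMCRS1 in either DMSO or EPZ-6438: 2 of DMSO NTG, 3 of DMSO siMCRS1, 3 of EPZ-6438 NTG and 2 of EPZ-6438 siMCRS1. All cells received 50 nM siRNA and were harvested 72 h later, and where the drug was used, 1 uM EPZ-6438 or the vehicle was added 3 days before transfection. INO80 is the ATPase of the INO80 chromatin remodelling complex, MCRS1 is a subunit of that complex, and EPZ-6438 inhibits the histone methyltransferase EZH2. The siINO80#1 and siINO80#2 groups used different siRNAs. For MCRS1 the labels name only siMCRS1, so effects on the target and elsewhere cannot be told apart for MCRS1. No oxygen level is given on the labels. Nothing states that replicates came from separate cultures, so the p-values measure the spread between these libraries, which may be technical.

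Glycolysis converts glucose to pyruvate through a series of enzymes, most of which exist as isozymes that differ between tissues. Adult hepatocytes rely on liver forms such as PKLR and PFKL, whereas hepatoma cells also carry forms found in most dividing cells, such as HK2 and PKM. When oxygen falls, the prolyl hydroxylases EGLN1 and EGLN3 no longer mark the HIF alpha subunits HIF1A and EPAS1 for destruction, and the stabilized subunits activate glycolytic genes, glucose transporters and genes such as CA9, VEGFA and NDRG1. This control acts largely on the HIF protein, which RNA-seq does not measure.

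Values are normalized counts as deposited, and levels were compared only between libraries of the same table. Recovered reads totalled 17093574 to 25369547 per library in the first table and 26038505 to 47397233 in the second, and 3 reads, taken as the detection floor, corresponded to at most 3.58 and 4.30 normalized counts. The hepatocyte markers ALB, AFP, TTR, APOA1, HNF4A and SERPINA1 were all high, with a lowest value of 1879 (TTR). Of the markers of other cell types, PTPRC did not exceed 35.9 and COL3A1 did not exceed 77.8, while PECAM1, CD68, COL1A1 and ACTA2 reached 326, 1597, 772 and 2713. The part of other cells in these levels was not tested, and in bulk RNA fewer cells of a type and less RNA per cell cannot be told apart. INO80 fell to 48.1% of the NTG mean with siINO80#1 and to 36.4% with siINO80#2. The siRNA against MCRS1 left 7.99% of its target under the vehicle and 7.93% under the drug. Neither target overlapped between groups. INO80 itself was also lower with siMCRS1, at 83.0% of NTG in DMSO and 78.3% in EPZ-6438. Library siINO80#2 C stood apart from its replicates, with a chi-square per degree of freedom of 84.3 and 121 against A and B. Other pairs in the same table did not exceed 18.7. In the second table all pairs were higher than that, from 21.3 (DMSO siMCRS1 2 and 3) to 71.3 (EPZ-6438 NTG 1 and 2). Values without this library are given where they change a result.

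Each member was tested with limma on log2(normalized count + 1), among all genes with a mean of at least 10, and called at a Benjamini-Hochberg adjusted p under 0.05. Fold changes are on that scale, given as log2 with SE. Of the 36 members 35 were tested, and LDHB was not, because it held 0 to 7.1 normalized counts in all libraries. With siINO80#1, 9 members rose and 7 fell, where 20.7% of the 14034 tested genes rose and 20.8% fell. With siINO80#2, 9 rose and 9 fell, against 26.6% and 28.4% of the tested genes. With siMCRS1, 14 rose and 5 fell in DMSO, against 23.1% and 24.6% of 14312 tested genes, and 16 rose and 7 fell in EPZ-6438, against 26.8% and 26.9%. The members' median log2 fold change was -0.18, -0.16, 0.28 and 0.40 in these 4 comparisons, where that of all tested genes was within 0.01 of zero. Members thus rose and fell in all 4 comparisons. The share that rose with siMCRS1 lay above the background and the share that fell in DMSO below it, and this difference was not tested. The balance depended on scaling. With libraries scaled to equal totals, the median of all genes moved by -0.081 and -0.109 with the 2 INO80 siRNAs and by -0.235 and -0.238 with siMCRS1 in DMSO and EPZ-6438. Then 5 members rose and 7 fell with siINO80#1, 4 rose and 9 fell with siINO80#2, 11 rose and 7 fell with siMCRS1 in DMSO, and 12 rose and 9 fell in EPZ-6438. Of all tested genes, 2912 rose and 2921 fell with siINO80#1 as scaled by the submitters and 2164 and 3277 with equal totals. For siINO80#2 these were 3733 and 3992 against 2856 and 4527, for siMCRS1 in DMSO 3307 and 3523 against 1892 and 5107, and in EPZ-6438 3839 and 3847 against 2292 and 5333. Single libraries also moved the counts. The siINO80#1 count of 16 dropped to 10, 9 and 10 without siINO80#1 A, siINO80#1 B and NTG C. Over all tested genes, the number called went from 5833 to 5068, 4778 and 4775 in these fits. The count of 23 for siMCRS1 in EPZ-6438 also dropped without EPZ-6438 siMCRS1 B, an omission that leaves 1 library in its group.

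**Figure D1:**
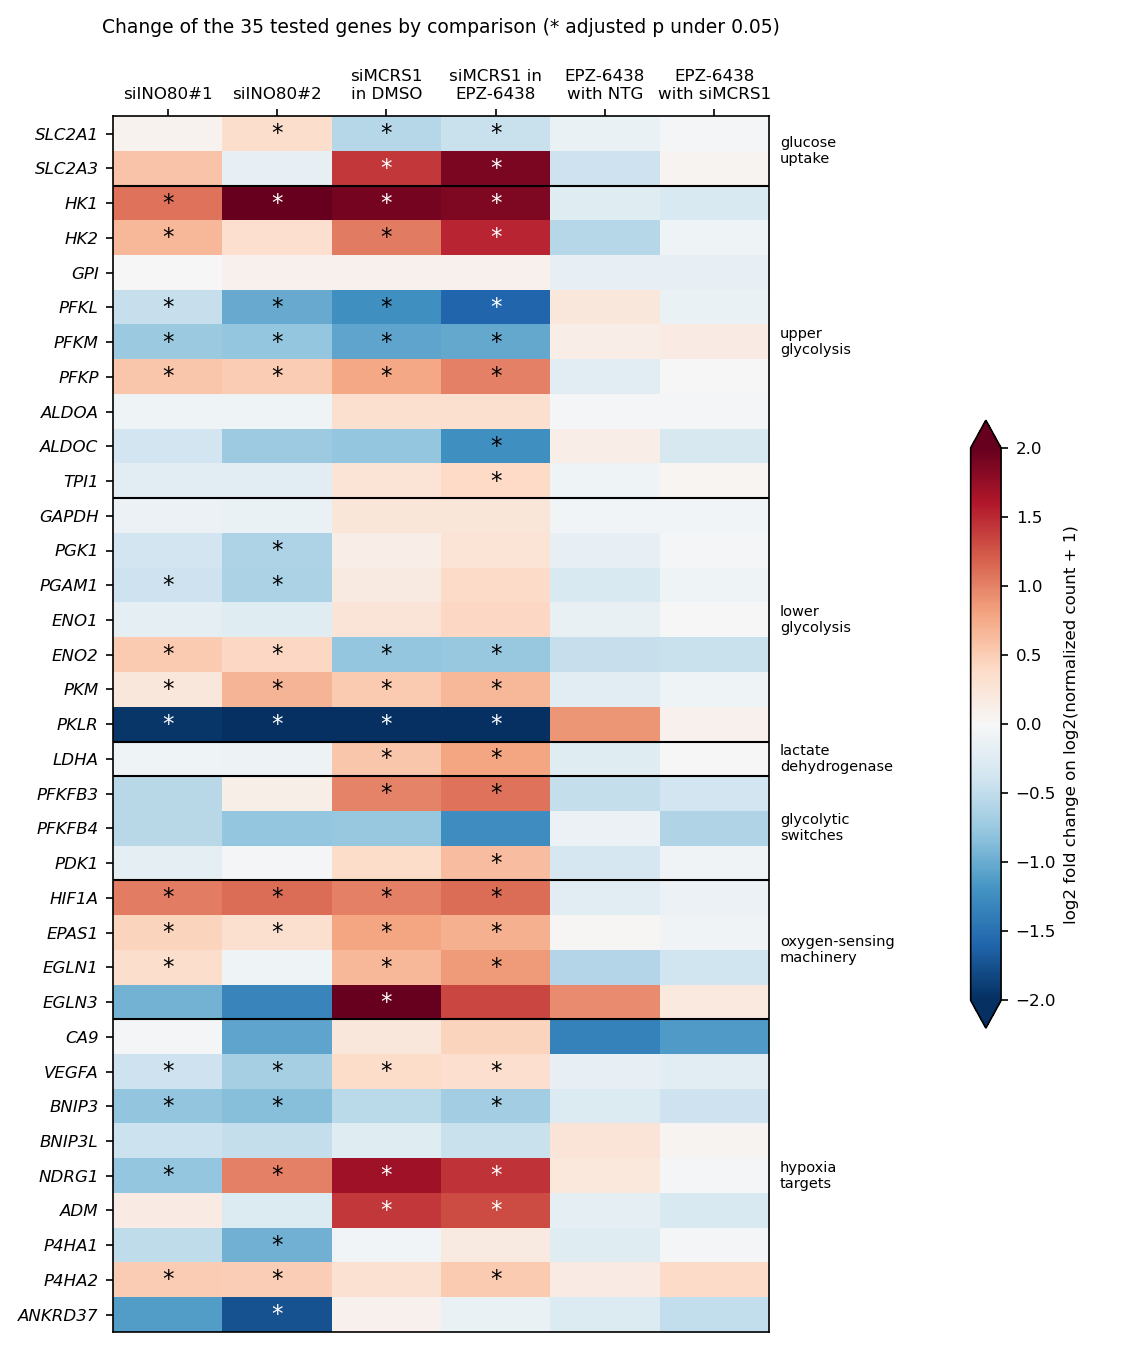
Heat map of the log2 fold change of the 35 tested members (rows, ordered by role) in 6 comparisons (columns), with colour capped at 2 in either direction and a star where the limma adjusted p was under 0.05. HK1 and HIF1A are red and PKLR, PFKL and PFKM are blue in all 4 knockdown columns, and the 2 EPZ-6438 columns carry no star.

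Among the isozymes of the enzymes that glycolysis is regulated through, both hexokinases, PFKP and PKM were called higher and PFKL, PFKM and PKLR lower in at least 3 of the 4 knockdown comparisons. HK1, a hexokinase found in most tissues (chr10:69270000-69401882, GRCh38), stood at 61.3, 68.8 and 69.1 normalized counts in NTG A, B and C, at 130.0, 136 and 159 with siINO80#1 and at 284, 314 and 299 with siINO80#2. The groups did not overlap, and HK1 rose by a log2 of 1.08 ± 0.12 with siINO80#1 (limma, adjusted p = 6.7e-05) and 2.15 ± 0.12 with siINO80#2 (adjusted p = 4.22e-07). In the second table HK1 was at 73.7 and 89.7 in DMSO NTG, 274, 348 and 317 in DMSO siMCRS1, 51.7, 78.9 and 78.8 in EPZ-6438 NTG and 215 and 293 in EPZ-6438 siMCRS1. HK1 again rose without overlap, by 1.92 ± 0.23 in DMSO (limma, adjusted p = 0.000124) and 1.86 ± 0.23 in EPZ-6438 (adjusted p = 9.79e-05). Its 4 knockdown calls held under every alternative analysis run. HK1 was also higher with siINO80#2 than with siINO80#1, by 1.08 ± 0.12 (adjusted p = 0.00035).

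HK2, the hexokinase induced in tumours, was the far more abundant of the pair. Per kilobase of transcript HK1 made up 4.42% of their summed level in NTG, 5.71% with siINO80#1 and 13.9% with siINO80#2 (means of 3 libraries). HK2 stood at 3234, 1922 and 2012 in NTG A, B and C, 4175, 3311 and 3594 with siINO80#1 and 2965, 4013 and 2149 with siINO80#2. With siINO80#1 all 3 libraries lay above NTG (0.66 ± 0.23, limma, adjusted p = 0.0407). The call was lost in 10 of 20 alternatives, among them leaving out siINO80#1 A, B or C, siINO80#2 A, NTG B or NTG C (highest adjusted p = 0.14). The siINO80#2 libraries overlapped NTG (0.34 ± 0.23, adjusted p = 0.234), and without siINO80#2 C the value was 0.57 (adjusted p = 0.0419). With siMCRS1 the rise was clear, from 3781 and 3432 in DMSO NTG to 7455, 7256 and 7529 (1.04 ± 0.19, adjusted p = 0.00118) and from 1928, 3248 and 2295 in EPZ-6438 NTG to 6046 and 8011 (1.52 ± 0.19, adjusted p = 9.1e-05). Both hexokinases rose with siMCRS1, and the HK1 share went from 3.44% to 6.19% in DMSO and from 4.26% to 5.33% in EPZ-6438.

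Phosphofructokinase, which commits sugar to glycolysis, changed in its isozyme make-up. PFKL, the liver form (chr21:44300053-44327373), was at 2383, 1854 and 2302 in NTG, 1536, 1508 and 1698 with siINO80#1 and 1074, 1289 and 905 with siINO80#2. It fell without overlap in both, by 0.46 ± 0.13 (limma, adjusted p = 0.017) and 1.01 ± 0.13 (adjusted p = 8.41e-05) on the log2 scale, and further with siINO80#2 than with siINO80#1 (-0.55 ± 0.13, adjusted p = 0.0137). The siINO80#1 call was lost without NTG A or C or siINO80#1 A or B (highest adjusted p = 0.0679), and that between the siRNAs without siINO80#1 C (adjusted p = 0.0548). In the second table PFKL went from 3702 and 2728 in DMSO NTG to 1855, 1195 and 1119 with siMCRS1 (-1.23 ± 0.24, adjusted p = 0.0016), and from 3731, 4076 and 3342 in EPZ-6438 NTG to 1526 and 1007 (-1.58 ± 0.24, adjusted p = 0.000271). All 4 comparisons thus gave a lower PFKL.

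PFKP, the platelet form, moved the other way. It held 234, 233 and 156 in NTG, 287, 305 and 308 with siINO80#1 (0.55 ± 0.15, limma, adjusted p = 0.0127) and 298, 305 and 267 with siINO80#2 (0.50 ± 0.15, adjusted p = 0.0149), the last call being lost with libraries scaled to equal totals (adjusted p = 0.0662). It held 417 and 489 in DMSO NTG against 729, 773 and 819 with siMCRS1 (0.77 ± 0.16, adjusted p = 0.0022), and 347, 453 and 364 in EPZ-6438 NTG against 682 and 867 (1.00 ± 0.16, adjusted p = 0.000377). Per kilobase, PFKP made up 9.49% of the phosphofructokinase signal in NTG, 17.1% with siINO80#1 and 22.5% with siINO80#2. With siMCRS1 it went from 13.5% to 38.3% in DMSO, and in EPZ-6438 from 10.1% to 40.2%. No NTG library reached the share of any knockdown library of its own table and drug condition.

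PFKM, the muscle form, was scarce and fell too. Its values were 65.8, 37 and 55.7 in NTG, 31.0, 31.7 and 28.0 with siINO80#1, and 26.9, 36 and 26.5 with siINO80#2, so that every knockdown library lay under every NTG library. It fell by 0.75 ± 0.24 with siINO80#1 (limma, adjusted p = 0.0297) and 0.78 ± 0.24 with siINO80#2 (adjusted p = 0.0186). With siMCRS1 it went from 81.4 and 80.2 to 44.5, 35.2 and 35.8 in DMSO (-1.06 ± 0.30, adjusted p = 0.0138) and from 109.9, 71.0 and 89.4 to 59.2 and 31.1 in EPZ-6438 (-1.03 ± 0.30, adjusted p = 0.0138). These calls were the least secure of the 3 isozymes, being lost in 2 to 6 alternatives each, among them without any one of NTG A or C, siINO80#1 A, B or C, siINO80#2 A, DMSO NTG 1 or 3 and EPZ-6438 siMCRS1 B (highest adjusted p = 0.186). The gene span of PFKM overlaps that of SENP1, which averaged 572 and 1121 normalized counts in the 2 tables. Shared exon sequence was not checked, and whether counting used strand is not given in the sources used here.

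PKLR, the liver and red cell pyruvate kinase (chr1:155289293-155308654), fell more than any other member in all 4 knockdown comparisons. It was at 554, 478 and 609 in NTG, 156, 109 and 165 with siINO80#1 and 104, 132 and 139 with siINO80#2, with log2 fold changes of -1.94 ± 0.18 (limma, adjusted p = 1.58e-05) and -2.12 ± 0.18 (adjusted p = 4e-06). In DMSO it went from 467 and 339 to 100.2, 74.9 and 58.7 with siMCRS1 (-2.37 ± 0.26, adjusted p = 7.38e-05), and in EPZ-6438 from 698, 848 and 682 to 101 and 63.9 (-3.19 ± 0.26, adjusted p = 1.04e-05). The groups were far apart in every case, from 3.84 to 9.11 fold, and no alternative ended a call. HCN3, whose gene span overlaps that of PKLR, averaged 102 and 117 normalized counts in the 2 tables, and shared exon sequence was not checked.

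PKM, which encodes the pyruvate kinase of most dividing cells, rose as PKLR fell. It held 21245, 20571 and 19129 in NTG, 23252, 23510 and 23923 with siINO80#1 and 32625, 31876 and 33013 with siINO80#2. The smaller step, of 0.22 ± 0.08 (limma, adjusted p = 0.0444), was lost in 10 of 20 alternatives, among them without any one NTG or siINO80#1 library or siINO80#2 A (highest adjusted p = 0.219), whereas that of 0.68 ± 0.08 (adjusted p = 3.24e-05) held in all. With siMCRS1 PKM went from 33141 and 26658 to 46408, 46864 and 36280 in DMSO (0.53 ± 0.18, adjusted p = 0.029) and from 25369, 31024 and 20928 to 38860 and 41670 in EPZ-6438 (0.66 ± 0.18, adjusted p = 0.0087). The DMSO call was lost in 7 alternatives, among them without DMSO NTG 3, DMSO siMCRS1 1 or DMSO siMCRS1 2 (highest adjusted p = 0.208), and the EPZ-6438 call was lost without EPZ-6438 siMCRS1 B and with quantile normalization (highest adjusted p = 0.0705). PKM was already the predominant form: per kilobase PKLR made up 2.00% of the pair in NTG, 0.458% and 0.290% with siINO80#1 and siINO80#2, and 1.00% and 0.135% in DMSO without and with siMCRS1.

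**Figure D2:**
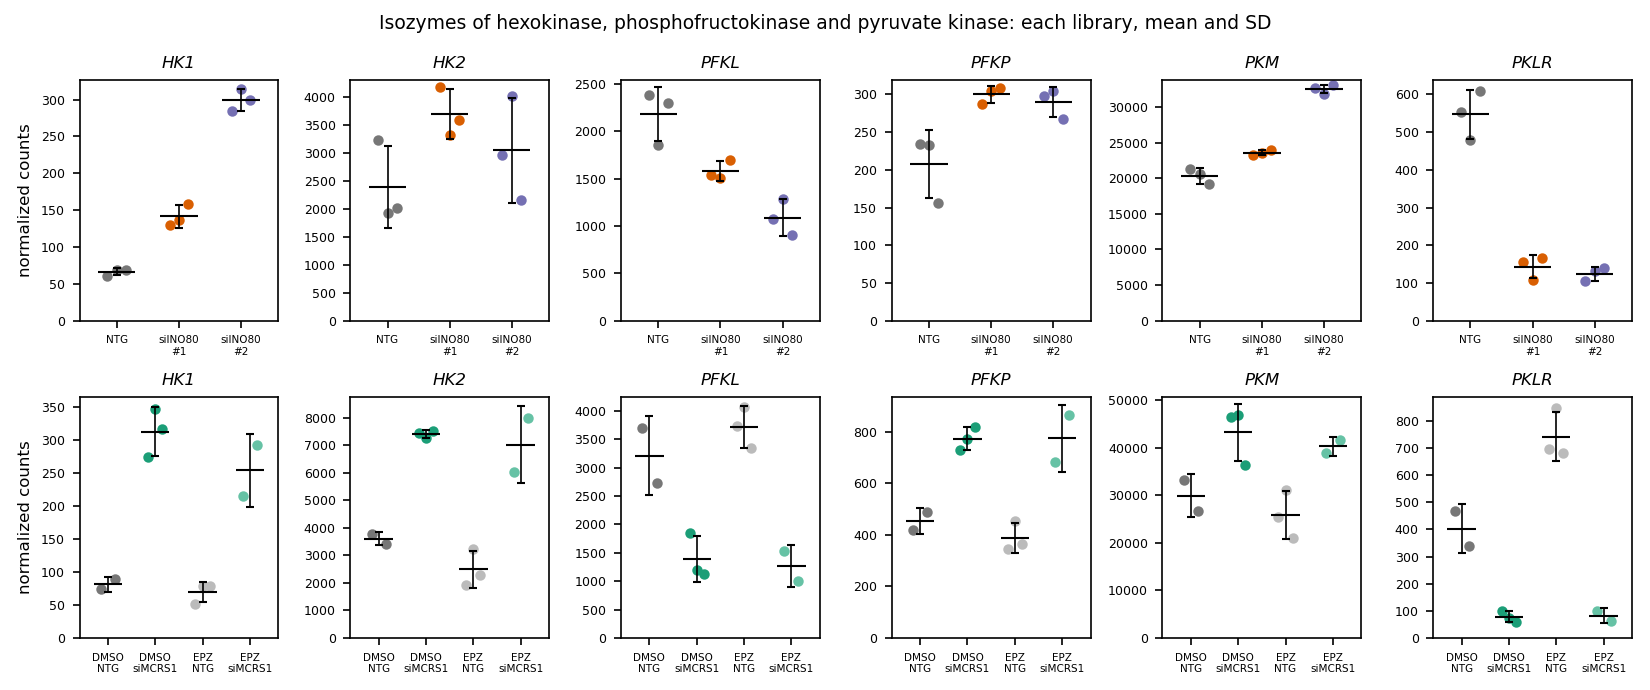
Normalized counts of 6 isozyme genes in each library (points), with group mean (line) and SD (bar), for the INO80 knockdown table (top row) and the MCRS1 and EPZ-6438 table (bottom row, EPZ standing for EPZ-6438); each axis starts at 0. HK1 and PFKP lie higher, and PFKL and PKLR lower, in every knockdown group than in its NTG group.

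GPI, ALDOA, GAPDH and ENO1, which carry the bulk of the pathway, were called in none of the 4 knockdown comparisons of the main fit. Their log2 fold changes lay between -0.24 and 0.41, with SEs of 0.08 to 0.22. Quantile normalization called ENO1 lower with siINO80#1 (-0.39, limma, adjusted p = 0.0176) and siINO80#2 (-0.48, adjusted p = 0.004), and GAPDH with siINO80#2 (-0.35, adjusted p = 0.00893). With siMCRS1 in EPZ-6438, ENO1 was called higher without DMSO siMCRS1 3 (0.41, adjusted p = 0.0474) or EPZ-6438 NTG 2 (0.50, adjusted p = 0.0428). TPI1 was called in siMCRS1 with EPZ-6438 alone (0.40 ± 0.14, limma, adjusted p = 0.0356), a call lost in 8 of 20 alternatives, among them without EPZ-6438 NTG 1 or 3 or EPZ-6438 siMCRS1 A or B. Quantile normalization turned the value to -0.05. Of PGAM1 and PGK1, consecutive enzymes of lower glycolysis, PGAM1 fell with both INO80 siRNAs and PGK1 with siINO80#2. PGAM1 was at 10822, 10071 and 10269 in NTG, 8044, 7894 and 7518 with siINO80#1 (-0.41 ± 0.13, adjusted p = 0.0258) and 7194, 7942 and 5223 with siINO80#2 (-0.64 ± 0.13, adjusted p = 0.00169). The groups did not overlap, although the siINO80#1 call was lost without any one NTG or siINO80#1 library and with eBayes without a trend (highest adjusted p = 0.0811). PGK1 was at 9656, 6666 and 8622 in NTG and 5538, 7243 and 3912 with siINO80#2, a change of -0.61 ± 0.20 (adjusted p = 0.0222) with overlap at siINO80#2 B. The call was lost without siINO80#2 C (-0.38, adjusted p = 0.0583), NTG A or NTG C (highest adjusted p = 0.0868). With siINO80#1 PGK1 was at 6624, 5884 and 6336, without a call (-0.39 ± 0.20, adjusted p = 0.139). PGK1 was called lower there without siINO80#2 C (-0.39, limma, adjusted p = 0.0355). With siMCRS1 neither was called (PGAM1 0.18 ± 0.18 and 0.39 ± 0.18, PGK1 0.14 ± 0.17 and 0.28 ± 0.17).

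The minor isozymes ENO2 and ALDOC are named for their use in neurons and brain, and ENO2 differed in sign between the knockdowns. ENO2 was at 969, 754 and 858 in NTG, 1257, 1181 and 1286 with siINO80#1 (0.53 ± 0.10, limma, adjusted p = 0.00172) and 1192, 1215 and 1025 with siINO80#2 (0.41 ± 0.10, adjusted p = 0.00524), all above NTG. In the second table it went from 1293 and 1312 to 847, 669 and 785 with siMCRS1 in DMSO (-0.77 ± 0.13, adjusted p = 0.000847) and from 943, 1007 and 895 to 508 and 618 in EPZ-6438 (-0.76 ± 0.13, adjusted p = 0.000731), all below NTG. Of the 4 calls only that for siINO80#2 was lost under an alternative, that of equal totals (adjusted p = 0.0582). ENO2 made up 2.20% of the enolase level per kilobase in NTG and 3.56% with siINO80#1, against 2.13% in DMSO NTG and 1.06% in DMSO siMCRS1.

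ALDOC was called in 1 comparison, siMCRS1 in EPZ-6438, where it went from 226, 411 and 223 to 126 and 107 (-1.23 ± 0.42, limma, adjusted p = 0.0295). The call was lost in 5 of 20 alternatives, among them without EPZ-6438 NTG 2, EPZ-6438 siMCRS1 A or EPZ-6438 siMCRS1 B (highest adjusted p = 0.142). In the other groups ALDOC spread widely, from 159 to 427 with siINO80#2 and from 91.4 to 259 in DMSO siMCRS1. LDHA, which turns pyruvate to lactate, rose with siMCRS1, from 37056 and 27274 to 53248, 49036 and 38604 in DMSO (0.55 ± 0.17, adjusted p = 0.0218) and from 27556, 29981 and 23383 to 46955 and 45851 in EPZ-6438 (0.79 ± 0.17, adjusted p = 0.00275). The DMSO call was lost in 5 alternatives, among them without DMSO NTG 3 or DMSO siMCRS1 1 or 2 (highest adjusted p = 0.218). LDHA was not called with siINO80#1 (-0.09 ± 0.16) or siINO80#2 (-0.10 ± 0.16), where the groups overlapped. The lactate dehydrogenase of these cells was LDHA throughout, since LDHB, the heart form, was at or near the detection floor in both tables.

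Among the glucose transporters, SLC2A3, a high-affinity carrier (chr12:7919230-7936187), rose with siMCRS1. It went from 12123 and 12512 in DMSO NTG to 27890, 35880 and 35285 (1.41 ± 0.18, limma, adjusted p = 0.000139) and from 7975, 11492 and 8468 in EPZ-6438 NTG to 29847 and 38815 (1.89 ± 0.18, adjusted p = 1.74e-05). SLC2A1, the carrier of most cell types, fell at the same time, from 25633 and 25728 to 16794, 18536 and 16502 in DMSO (-0.57 ± 0.15, adjusted p = 0.00832) and from 21691, 29235 and 20012 to 16185 and 17935 in EPZ-6438 (-0.45 ± 0.15, limma, adjusted p = 0.0234). The latter call was lost without EPZ-6438 siMCRS1 A or B and with only the compared groups fitted (highest adjusted p = 0.137). Per kilobase SLC2A3 thus went from 29.8% to 62.7% of the pair in DMSO and from 25.9% to 63.8% in EPZ-6438, and passed SLC2A1. The siINO80 groups did not show this order, with SLC2A3 at 27.6% and 16.1% of the pair against 21.5% in NTG. SLC2A3 itself was at 5799, 3549 and 3235 in NTG, 6809, 6393 and 5029 with siINO80#1 and 3793, 4938 and 2560 with siINO80#2, without a call (0.57 ± 0.25 with siINO80#1, adjusted p = 0.0945). With the replicate letter as a block, SLC2A3 was called higher with siINO80#1 (0.57, limma, adjusted p = 0.0266), although the groups overlapped. It was also called there without siINO80#2 C (0.57, adjusted p = 0.0394). SLC2A1 was called higher with siINO80#2 (0.35 ± 0.13, adjusted p = 0.0488), from 14111, 15175 and 11014 to 18164, 18784 and 14213. The groups overlapped, and 12 of 20 alternatives lost the call, 7 of them by leaving out a single library (NTG A or C, siINO80#1 A, B or C, siINO80#2 A or B).

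Of the 3 switch genes, PFKFB3, which makes the activator of phosphofructokinase, rose with siMCRS1, from 620.4 and 626 to 1258, 1317 and 1149 in DMSO (0.99 ± 0.26, limma, adjusted p = 0.00859) and from 310.3, 625 and 463 to 764 and 1188 in EPZ-6438 (1.09 ± 0.26, adjusted p = 0.0044). Each call was lost without 1 library, DMSO NTG 1 (adjusted p = 0.051) and EPZ-6438 siMCRS1 B (adjusted p = 0.0668). It was at 629, 244 and 349 in NTG, 305, 226 and 245 with siINO80#1 and 435, 509 and 315 with siINO80#2, without a call. PDK1, the kinase that holds pyruvate out of the mitochondrial pyruvate dehydrogenase, was called higher with siMCRS1 in EPZ-6438 (599, 980.4 and 697 against 1069 and 1228; 0.62 ± 0.20, adjusted p = 0.0236), a call lost without EPZ-6438 NTG 1, EPZ-6438 NTG 3 or EPZ-6438 siMCRS1 B and with equal totals (highest adjusted p = 0.15). PFKFB4 was not called in any comparison, and its replicates stood as far apart as 893, 263 and 693 in NTG.

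Of the oxygen-sensing genes, HIF1A rose in every knockdown comparison. HIF1A (chr14:61695513-61748258) was at 3770, 3932 and 3698 in NTG, 7708, 7528 and 8081 with siINO80#1 and 7809, 6909 and 10540 with siINO80#2. It rose by 1.03 ± 0.13 (limma, adjusted p = 0.000111) and 1.12 ± 0.13 (adjusted p = 3.2e-05), the latter 0.95 without siINO80#2 C. In the second table HIF1A was at 7307 and 8242 in DMSO NTG against 13933, 17046 and 15895 with siMCRS1 (1.00 ± 0.11, adjusted p = 7.62e-05), and at 6224, 6845 and 6959 in EPZ-6438 NTG against 13813 and 15026 (1.11 ± 0.11, adjusted p = 2.59e-05). The folds were 2.04, 2.18, 2.01 and 2.16. The groups never overlapped, and every alternative kept the call, with lowest log2 values of 0.95, 0.95, 0.68 and 0.74. The difference between the tables was not tested.

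EPAS1, which encodes the second HIF alpha subunit of these cells, rose less. It held 4500, 4241 and 4697 in NTG, 5913, 5721 and 6701 with siINO80#1 (0.45 ± 0.11, limma, adjusted p = 0.00662) and 5209, 5035 and 6608 with siINO80#2 (0.32 ± 0.11, adjusted p = 0.0266). The siINO80#2 call was lost in 5 alternatives, among them without NTG A, without NTG B and without siINO80#2 C (0.19, adjusted p = 0.0577). With siMCRS1 EPAS1 went from 6152 and 6665 to 10208, 11986 and 11205 in DMSO (0.79 ± 0.17, adjusted p = 0.00262) and from 5092, 7975 and 6711 to 9730 and 11517 in EPZ-6438 (0.71 ± 0.17, adjusted p = 0.00422), and the latter call was lost without EPZ-6438 siMCRS1 B and with quantile normalization (highest adjusted p = 0.0698). HIF1A accounted for 52.6% of the 2 subunits per kilobase in NTG, 62.5% with siINO80#1 and 66% with siINO80#2, against 61.3% and 64.7% in DMSO without and with siMCRS1.

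EGLN1, the main HIF prolyl hydroxylase, also rose with siMCRS1, from 3666 and 3896 to 5401, 6613 and 6015 in DMSO (0.66 ± 0.13, limma, adjusted p = 0.00208) and from 2440, 2667 and 2490 to 3914 and 5296 in EPZ-6438 (0.85 ± 0.13, adjusted p = 0.000374). With siINO80 the 2 siRNAs differed. EGLN1 was at 2006, 1998 and 2052 in NTG, 2363, 2769 and 2591 with siINO80#1 (0.35 ± 0.09, adjusted p = 0.0128, lost without siINO80#1 B and with equal totals, highest adjusted p = 0.126). It was at 1919, 2135 and 1658 with siINO80#2, which was lower than siINO80#1 by 0.44 ± 0.09 (adjusted p = 0.00834). EGLN3, an HIF target that feeds back on HIF, was low and uneven. It was at 18.2 and 8.59 in DMSO NTG against 93.5, 58.4 and 32.9 in DMSO siMCRS1 (2.08 ± 0.62, adjusted p = 0.017), a call lost without DMSO NTG 3 or DMSO siMCRS1 1 (highest adjusted p = 0.129). In EPZ-6438 it was at 10.8, 49.7 and 28.4 against 48.0 and 87.9 (1.34 ± 0.62, adjusted p = 0.0886), with overlap.

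**Figure D3:**
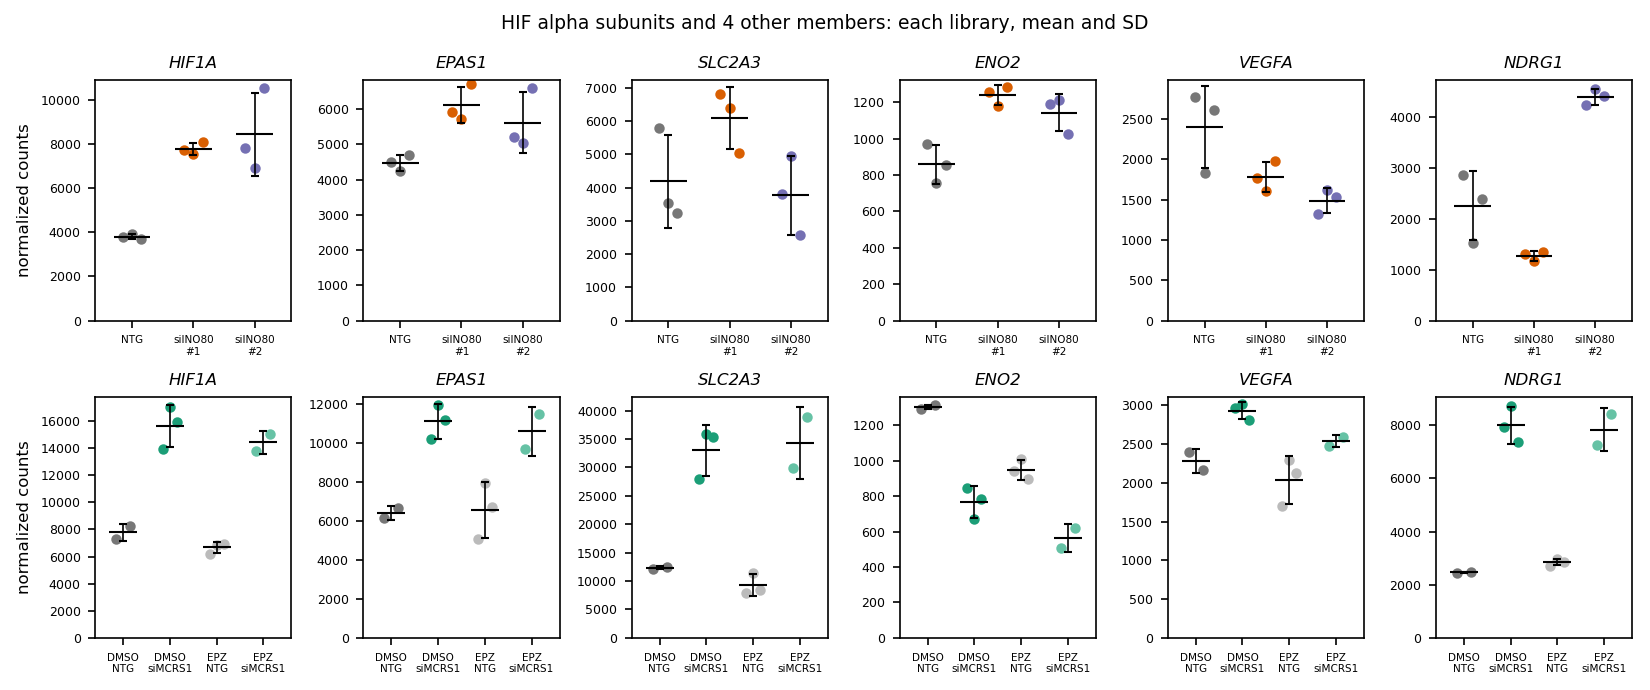
Normalized counts of HIF1A, EPAS1, SLC2A3, ENO2, VEGFA and NDRG1 in each library (points), with group mean (line) and SD (bar), for the INO80 knockdown table (top row) and the MCRS1 and EPZ-6438 table (bottom row, EPZ standing for EPZ-6438); each axis starts at 0. HIF1A lies higher in every knockdown group, ENO2 lies higher with siINO80 and lower with siMCRS1, and NDRG1 lies below NTG with siINO80#1 and above it with siINO80#2 and siMCRS1.

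HIF binds a short core whose letters are ACGTG or GCGTG. These letters were counted, on both strands, in RefSeq promoters of GRCh38.p14 reaching from 250 bases before to 50 bases after each start site. Of the 36 members 32 matched, with 56 promoters. ACGTG was found in 23 of the 56 (41.1%), against 24.8% of the 15029 promoters of genes tested in the INO80 table and 21.4% of all 35116 promoters. GCGTG was found in 21 (37.5%), against 47.3% and 36.5%, and CACGTG, which holds ACGTG and is also the E-box read by glucose- and growth-responsive factors, in 9 (16.1%), against 9.05% and 7.26%. The 30 bases around the cores of 5 members are shown because these genes include both the most variable hypoxia targets and an abundant enzyme. Capitals mark ACGTG or GCGTG on either strand, and a match does not show that a factor binds there.
CA9, chr9:35673898-35673927, + strand: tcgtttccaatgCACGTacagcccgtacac
ANKRD37, chr4:185396675-185396704, + strand: gctcCACGTGccagtgtttgtgtACGTGcg
PDK1, chr2:172556060-172556089, + strand, by its downstream start site: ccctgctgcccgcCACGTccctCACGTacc
BNIP3, chr10:131982042-131982071, - strand: ccgcgCACGCgccgCACGTGccaCACGCac
LDHA, chr11:18394468-18394497, + strand: ccgactcaCACGTGggttcccgCACGTccg

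Of the 9 hypoxia targets, 1 rose and 3 fell with siINO80#1, where 20.7% of the tested genes rose and 20.8% fell, and 2 rose and 4 fell with siINO80#2, against 26.6% and 28.4%. With siMCRS1, 3 rose and 0 fell in DMSO, against 23.1% and 24.6%, and 4 rose and 1 fell in EPZ-6438, against 26.8% and 26.9%. Their median log2 fold changes were -0.43, -0.67, 0.23 and 0.33. BNIP3, a mitophagy receptor whose promoter is shown above, fell with siINO80. It was at 3068, 1729 and 2761 in NTG, 1507, 1298 and 1448 with siINO80#1 (-0.79 ± 0.20, limma, adjusted p = 0.00872) and 1201, 1705 and 1209 with siINO80#2 (-0.85 ± 0.20, adjusted p = 0.00393), every knockdown library below every NTG library. It also fell with siMCRS1 in EPZ-6438, from 3346, 3446 and 2679 to 2086 and 1796 (-0.70 ± 0.22, adjusted p = 0.0222, lost without EPZ-6438 NTG 1, EPZ-6438 NTG 2 or EPZ-6438 siMCRS1 B, highest adjusted p = 0.142), while in DMSO the groups overlapped (4695 and 3040 against 3454, 2370 and 2121; adjusted p = 0.0665). Rows of BNIP3 pseudogenes held up to 8.96% of the combined signal. The gene span of BNIP3 overlaps that of PPP2R2D, which averaged 664 and 1469 normalized counts in the 2 tables. ANKRD37, a direct HIF target, was at 98.1, 59.5 and 63.4 in NTG and 17.9, 49.8 and 9.45 with siINO80#2 (-1.75 ± 0.48, adjusted p = 0.00985), a value of -1.23 without siINO80#2 C (adjusted p = 0.0262) and -2.37 without siINO80#2 B (adjusted p = 0.000267). It was at 37, 23.8 and 39.4 with siINO80#1 (-1.12 ± 0.48, limma, adjusted p = 0.088), and was called lower there without siINO80#2 C (-1.12, adjusted p = 0.0271). The gene span of ANKRD37 overlaps those of LRP2BP (means of 66.4 and 67.0 in the 2 tables) and UFSP2 (375 and 845). Shared exon sequence was not checked for BNIP3 or ANKRD37.

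The collagen prolyl 4-hydroxylase subunits P4HA1 and P4HA2 moved apart. P4HA1 was at 3596, 2077 and 2981 in NTG, 2346, 1591 and 2067 with siINO80#1 (-0.51 ± 0.22, limma, adjusted p = 0.0931) and 1255, 1932 and 1244 with siINO80#2 (-0.96 ± 0.22, adjusted p = 0.00399), the latter without overlap. P4HA2 was called higher with siINO80#1 (0.50 ± 0.15, adjusted p = 0.0179), siINO80#2 (0.49 ± 0.15, adjusted p = 0.0158) and siMCRS1 in EPZ-6438 (0.52 ± 0.14, adjusted p = 0.00959), and equal totals lost all 3 calls. Other single omissions lost them too: NTG B or siINO80#1 C for siINO80#1, NTG B or siINO80#2 B for siINO80#2, and EPZ-6438 siMCRS1 A for siMCRS1. Per kilobase P4HA2 made up 14.2% of the pair in NTG, 25.1% with siINO80#1 and 31.2% with siINO80#2.

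ADM, which encodes the vasodilator adrenomedullin, rose with siMCRS1 only among the tests made here, since siINO80#1 and siINO80#2 gave 0.16 ± 0.22 and -0.28 ± 0.22 without a call and the difference between tables was not tested. It went from 452 and 337 to 1112, 1125 and 908 in DMSO (1.42 ± 0.19, limma, adjusted p = 0.000224) and from 319, 427 and 289 to 774 and 920.4 in EPZ-6438 (1.31 ± 0.19, adjusted p = 0.000251), and the calls held in all alternatives. VEGFA, the angiogenic growth factor, was at 2769, 1825 and 2607 in NTG, 1772, 1604 and 1977 with siINO80#1 (-0.41 ± 0.15, adjusted p = 0.0471) and 1319, 1617 and 1531 with siINO80#2 (-0.67 ± 0.15, adjusted p = 0.00292), and the first of these was lost in 7 alternatives, 4 of which left out NTG A, NTG C, siINO80#1 A or siINO80#1 B (highest adjusted p = 0.172). With siMCRS1 it was higher in both drug conditions (0.36 ± 0.12, adjusted p = 0.0331, and 0.33 ± 0.12, adjusted p = 0.0456), at 2394 and 2171 against 2966, 3017 and 2817 in DMSO and at 1697, 2289 and 2127 against 2480 and 2593 in EPZ-6438. Although the groups did not overlap, these were weak calls, lost in 9 of 21 and 15 of 20 alternatives: in DMSO without DMSO NTG 1 or 3 or DMSO siMCRS1 1 or 2, and in EPZ-6438 without any one library of the table other than EPZ-6438 NTG 2 (highest adjusted p = 0.375 and 0.536).

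NDRG1, a stress-responsive gene often used as a hypoxia marker, was the member on which the 2 INO80 siRNAs disagreed. It was at 2863, 1523 and 2395 in NTG, 1313, 1165 and 1349 with siINO80#1, all below NTG, and 4238, 4550 and 4424 with siINO80#2, all above NTG. It fell by 0.78 ± 0.18 with siINO80#1 (limma, adjusted p = 0.00557) and rose by 1.01 ± 0.18 with siINO80#2 (adjusted p = 0.000744), and the difference between the siRNAs was 1.79 ± 0.18 (adjusted p = 0.000193). With siMCRS1 it rose from 2454 and 2491 to 7920, 8741 and 7362 in DMSO (1.69 ± 0.10, adjusted p = 5.94e-06) and from 2723, 2973 and 2867 to 7268 and 8408 in EPZ-6438 (1.45 ± 0.10, adjusted p = 5.77e-06). All 5 calls held under every alternative.

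In all, 3 members were higher and 2 lower with siINO80#2 than with siINO80#1, where 9.48% and 12.6% of the tested genes were. These were HK1, PKM and NDRG1, and PFKL and EGLN1. Without siINO80#2 C, SLC2A1 was also called higher (0.40, limma, adjusted p = 0.0377) and EPAS1 lower (-0.25, adjusted p = 0.0449). Without siINO80#2 B the count was 9, where 3481 of all tested genes were called, against 3096 with all libraries. INO80 itself was lower with siINO80#2 than with siINO80#1, by 0.40 ± 0.08 on the log2 scale (limma, adjusted p = 0.00577), and the part of this difference in knockdown in those results was not tested.

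The INO80 and MCRS1 knockdowns shared no library, so their calls were set side by side. Of the 9 members that rose with siINO80#1, 7 (77.8%) also rose with siMCRS1 in DMSO, which is 50% of the 14 that rose there: HK1, HK2, PFKP, PKM, HIF1A, EPAS1 and EGLN1. Of the 7 that fell, 3 (42.9%) fell with siMCRS1, 60% of the 5 there: PFKL, PFKM and PKLR. For siINO80#2 the shares were 6 of 9 that rose (66.7%, and 42.9% of the 14) and 3 of 9 that fell (33.3%, and 60% of the 5). Over the 13534 genes tested in both tables, 65.1% of those that rose with siINO80#1 also rose with siMCRS1 in DMSO (58% of the latter) and 63.4% of those that fell also fell (53.9%). For siINO80#2 these shares were 57% (64.6%) and 55.2% (64.1%), and the members' shares are to be read against them. HK1, PFKP, PKM, HIF1A and EPAS1 were called higher, and PFKL, PFKM and PKLR lower, in all 4 knockdown comparisons, as were 11.4% of those 13534 genes in each direction, although those with a shared NTG group are not independent. Called in opposite directions were ENO2 and VEGFA with both siINO80#1 and siINO80#2 against siMCRS1, NDRG1 with siINO80#1 and SLC2A1 with siINO80#2. The share of all tested genes called in opposite directions was not computed, so these calls have no background here.

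**Figure D4:**
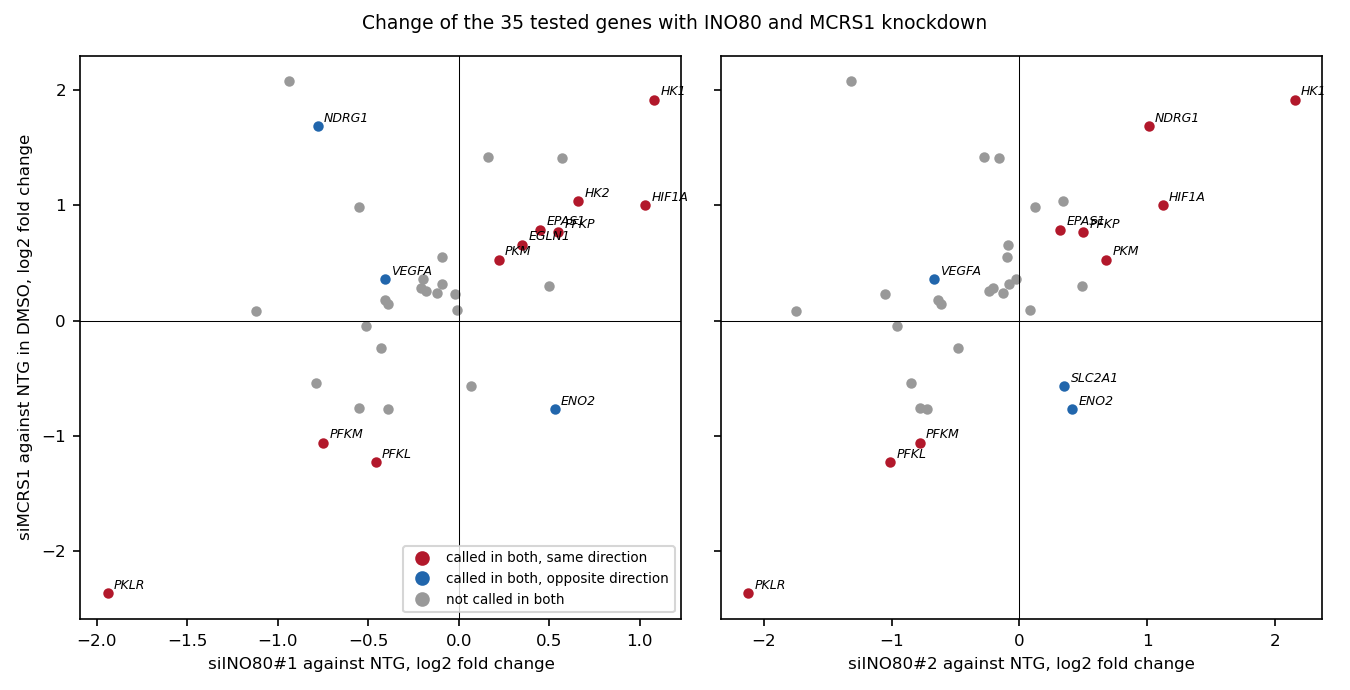
Log2 fold change of each tested member with siMCRS1 in DMSO (vertical axis) against that with siINO80#1 (left) and siINO80#2 (right), with members called in both named, in red where the direction is the same and in blue where it is opposite. HK1, HIF1A and PFKP lie at the upper right and PKLR, PFKL and PFKM at the lower left in both panels, and ENO2 lies at the lower right in both.

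Whether EPZ-6438 changed a member depended on the fit. In the fit without a replicate term, against DMSO, 0 of 35 members were called with NTG, where 0.384% of the tested genes were, and 0 with siMCRS1, where 0.0908% were. The test of edgeR on the recovered reads also called 0 in both. At an unadjusted p under 0.05 limma gave 5 members and 3 members, where it gave 17.1% (2443) and 9.12% (1305) of the 14312 tested genes. With the number in the column name as a term, an alternative chosen after seeing the data and fitted on the 8 numbered libraries, limma called 5 members with NTG, where 8.1% of 14327 tested genes were called. PKLR was then higher (0.85, adjusted p = 0.0374), and EGLN1 (-0.63, adjusted p = 0.0128), SLC2A3 (-0.54, adjusted p = 0.0295), PGAM1 (-0.33, adjusted p = 0.0301) and HK2 (-0.66, adjusted p = 0.0492) were lower by limma. DMSO NTG held 2 of these libraries, and the numbers were not shown to pair the samples. Without that term, the smallest p with NTG was that of EGLN1 (-0.58 ± 0.13, limma, adjusted p = 0.0864), at 3666 and 3896 in DMSO and 2440, 2667 and 2490 in EPZ-6438. PKLR was higher by 0.89 ± 0.26 (adjusted p = 0.133) and ENO2 lower by 0.46 ± 0.13 (adjusted p = 0.128), neither past the threshold, and with siMCRS1 ENO2 differed by -0.45 ± 0.13 (adjusted p = 0.321). The interaction of siMCRS1 with EPZ-6438 was called in 0 members and in 0% of all tested genes by limma. By edgeR it was also called in 0 members, and 0 members had an unadjusted p under 0.05 by limma, as 336 (2.35%) of all tested genes had. Its largest differences were -0.82 ± 0.37 for PKLR and -0.74 ± 0.87 for EGLN3. With 2 libraries in a group, differences of this size may not have been detectable.

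Several hypoxia-responsive members differed more between replicates than between groups. CA9, the carbonic anhydrase that is among the most strictly HIF-dependent genes, was at 279.9, 0 and 195 in NTG A, B and C, 100.2, 3.97 and 104 with siINO80#1 and 5.61, 122 and 6.61 with siINO80#2. In the second table it was at 64.1 and 0.954 in DMSO NTG, 49.0, 7.71 and 4.30 in DMSO siMCRS1, 2.15, 26.3 and 0 in EPZ-6438 NTG and 2.40 and 9.76 in EPZ-6438 siMCRS1. Libraries of the same group thus differed more than groups did. The within-group SD of CA9 on the log2 scale was 3.30 in the first table and 2.30 in the second. The median over all tested genes was 0.15 and 0.19, and that over the members was 0.23 in both. EGLN3 stood at 123, 18.5 and 74.9 in NTG and 14.6, 60.5 and 11.3 with siINO80#2, so that the highest libraries were those of CA9.

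This order recurred in other members. CA9, EGLN3, ANKRD37, PFKFB4, PDK1 and BNIP3L, chosen after their values were seen, were all highest in NTG A, in siINO80#2 B, in DMSO NTG 1 and in EPZ-6438 NTG 2 of their groups, and all lowest in NTG B and in siINO80#1 B. Over all 35 tested members, 29 were highest in NTG A and 31 in siINO80#2 B, whereas 32.7% and 33.2% of all tested genes were. Among the libraries with the drug or vehicle, 31 were highest in EPZ-6438 NTG 2 (37.4% of all genes) and 25 in DMSO NTG 1 (55.8%). As a description, the correlation of deviations from the group means had a median of 0.67 over all pairs of members across the 9 libraries and 0.50 across the 10, against 0.00 and 0.01 over all pairs of tested genes, and of 0.93 and 0.80 over pairs of the 6 named genes. Deviations within a group of 2 mirror each other. Of the 4 highest libraries, NTG A had the fewest reads of its group (17154152), while siINO80#2 B, DMSO NTG 1 and EPZ-6438 NTG 2 had the most of theirs (25369547, 34954800 and 47397233). The part of depth in this order was not tested.

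For CA9, PFKFB4 and BNIP3L no knockdown comparison was called, and their SEs reached 2.04 for CA9. BNIP3L with siMCRS1 in EPZ-6438 stood at 1304, 1606 and 1206 against 995 and 995 (-0.45 ± 0.19, limma, adjusted p = 0.0647). The groups did not overlap, and 7 of 20 alternatives called it, among them edgeR (adjusted p = 0.0441), quantile normalization and equal totals. PFKFB4 was called there under 3 of 20, and CA9 was called under none. Leaving out NTG B or siINO80#2 B, the lowest and the highest library of their groups for these genes, also gave calls. Picked from these values, such omissions lower fold changes of these genes by construction. Leaving out NTG B lowers those of both INO80 siRNAs, and leaving out siINO80#2 B lowers those of siINO80#2. Leaving out NTG A, the highest NTG library for them, instead called SLC2A3 higher with siINO80#1 (0.83, limma, adjusted p = 0.0208) and HK2 higher with siINO80#2 (0.58, adjusted p = 0.0444). Without NTG B, BNIP3L was called lower with both INO80 siRNAs (-0.85 and -0.90, limma, adjusted p = 0.0123 and 0.00623), as was PFKFB4 (-1.07 and -1.31, adjusted p = 0.0442 and 0.0139). PFKFB3 (-0.87) and P4HA1 (-0.73) were then called lower with siINO80#1, and EGLN3 (-2.09) and ADM (-0.53) with siINO80#2. Without siINO80#2 B, ALDOC (-1.17), EGLN3 (-2.03), PFKFB4 (-1.19), ENO1 (-0.33) and TPI1 (-0.32) were called lower with siINO80#2, and ANKRD37 (-1.12) with siINO80#1.

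**Figure D5:**
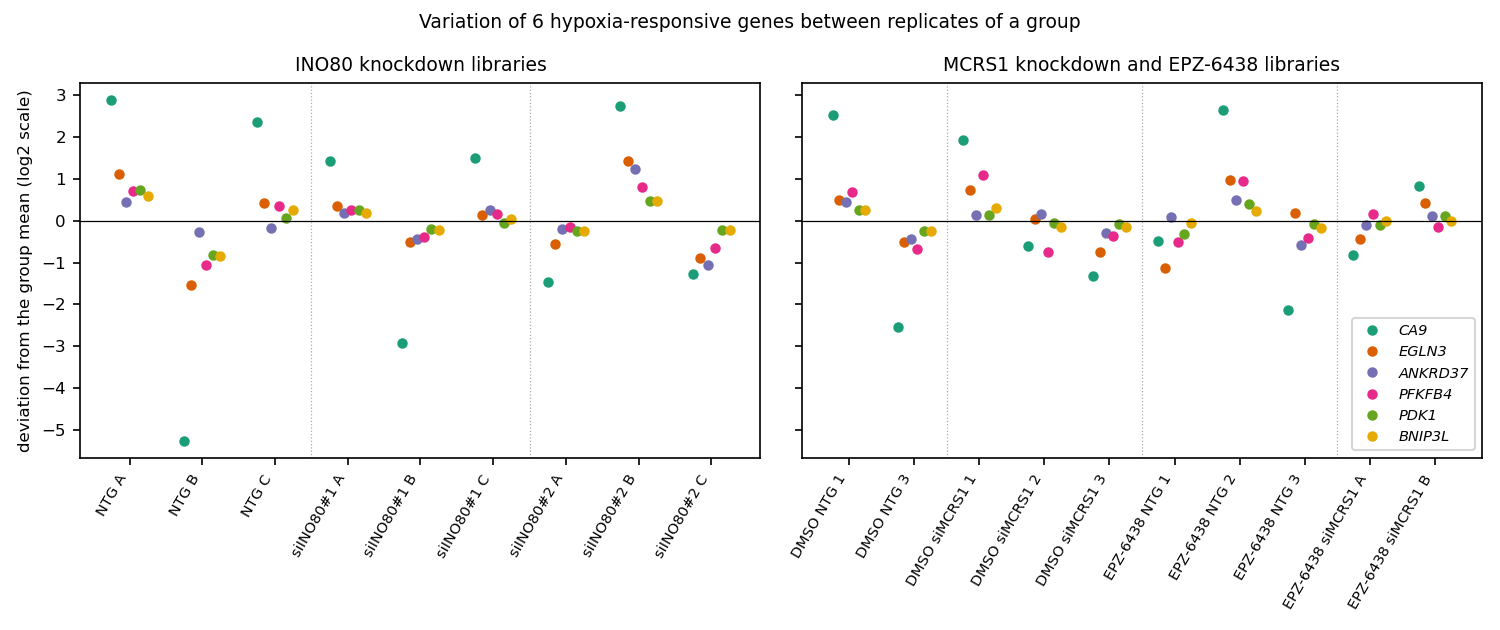
Deviation of each library from its group mean on the log2(normalized count + 1) scale for CA9, EGLN3, ANKRD37, PFKFB4, PDK1 and BNIP3L, in the INO80 table (left) and the MCRS1 and EPZ-6438 table (right), with dotted lines between groups. All 6 genes lie above 0 in NTG A, siINO80#2 B, DMSO NTG 1 and EPZ-6438 NTG 2 and below 0 in NTG B, siINO80#1 B and DMSO NTG 3.

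The rest of the pathway was read from 5 further lists of 89 genes, against backgrounds of 20.7%, 26.6%, 23.1% and 26.8% of tested genes that rose and 20.8%, 28.4%, 24.6% and 26.9% that fell with siINO80#1, siINO80#2, and siMCRS1 in DMSO and in EPZ-6438. Of 14 tested genes for other glycolytic isozymes and sugar entry, 8 fell with siINO80#1, 9 with siINO80#2 and 7 with siMCRS1 in each drug condition, and 0, 0, 1 and 1 rose. Their median log2 fold changes were -0.43, -0.68, -0.65 and -0.61. Among 15 tested genes of pyruvate and lactate handling, 2 rose in each comparison and 6, 7, 7 and 8 fell. Among 14 other HIF pathway components, 2 and 3 rose and 3 and 2 fell with the 2 INO80 siRNAs, and 6 rose with siMCRS1 in each drug condition while 1 and 2 fell. Of the other textbook hypoxia targets, 5 and 8 of 32 tested rose and 5 and 10 fell with siINO80, against 14 and 17 of 31 that rose and 4 and 4 that fell with siMCRS1. Of 8 regulators and fructose 2,6-bisphosphate enzymes, 4, 4, 3 and 4 rose and 2, 3, 3 and 2 fell.

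Genes of these lists were named where they changed at least 2-fold the same way with each INO80 siRNA and with siMCRS1 in DMSO. MLXIPL, which encodes the glucose sensor ChREBP that drives PKLR in liver, was at 1710, 1518 and 1971 in NTG, 882, 698 and 899 with siINO80#1 (-1.07 ± 0.14, limma, adjusted p = 0.000197), 468, 599.7 and 643 with siINO80#2 (-1.61 ± 0.14, adjusted p = 6.68e-06). It was at 1500 and 1819 in DMSO NTG and 362, 204 and 318 in DMSO siMCRS1 (-2.52 ± 0.32, adjusted p = 0.000162). TXNIP and ARRDC4, ChREBP targets in other settings, rose instead: TXNIP by 1.24 ± 0.22, 1.74 ± 0.22 and 1.08 ± 0.17, and ARRDC4 by 1.47 ± 0.27, 1.64 ± 0.27 and 1.09 ± 0.20, in the same 3 comparisons. GCKR, the regulator of glucokinase, fell, with log2 fold changes of -1.39 ± 0.19, -1.95 ± 0.19 and -2.46 ± 0.23. LDHD, the D-lactate dehydrogenase, fell with -1.68 ± 0.23, -2.70 ± 0.23 and -3.35 ± 0.28. EPO, the classical hypoxia-induced hormone, was at 108, 63.6 and 107 in NTG, 46.5, 15.9 and 27.1 with siINO80#1 and 6.73, 22.2 and 3.78 with siINO80#2, and at 177 and 107 in DMSO NTG and 60.1, 26.4 and 22.9 in DMSO siMCRS1. Its log2 fold changes were -1.69 ± 0.55, -3.26 ± 0.55 and -2.02 ± 0.46. QSOX1, a sulfhydryl oxidase, rose by 1.29 ± 0.09, 1.76 ± 0.09 and 1.38 ± 0.16.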

How the data were processed

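The 2 tables used hold deposited normalized counts. Per the submitters' processing notes, reads were quantified with kallisto against GRCh38 and normalized with DESeq2; versions are not given in the sources used here. The deposited values are a signal of counts divided by a size factor, and whole reads (tolerance 0.01) were recovered in 100% of values in each library, giving the depths above. The tables were scaled separately and never pooled. Libraries were made from total RNA with a stranded mRNA kit.

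Genes with a mean of at least 10 were tested on log2(value + 1) with limma 3.58.1 (trend, two-sided, 1 fit per table, all groups; R 4.3.3), after the fit had been tested on simulated data. That simulation had a fixed dispersion and no variation shared between genes of a library, so it does not give the error rates here. Alternatives were pseudocounts of 0.1 and 5, no filter, a mean of at least 50, equal totals, quantile normalization, TMM scaling, a replicate block, each library left out, only the compared groups, no trend, and the quasi-likelihood test of edgeR 4.0.16 on recovered reads. A block by column number in the second table was added after seeing the data. Deviations of NTG and siINO80#1 libraries of the same letter correlated at 0.247, 0.263 and 0.135. Pairing by letter is not stated on the labels, and the main fit held no pairing term. The replicate block was an alternative that covered all 9 libraries of the first table, siINO80#2 included. The members and lists were chosen with earlier results of these data known. A member was described in every library where it was called with a log2 change of at least 0.58 in a knockdown comparison. Levels per kilobase used GENCODE MANE Select lengths. ELOB and ELOC were read from rows under older RefSeq synonyms. Pseudogene rows named after a member held under 2% of its signal except for EGLN3 (up to 10.0%), BNIP3 (up to 8.96%) and LDHB. Counting intervals and floors cover counting error only. A library left out of a group of 2 leaves 1, assumed to vary like the others.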

Additional observations from a re-analysis of the deposited data

Results flagged for a closer look

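NDRG1 changed in opposite directions with the 2 INO80 siRNAs. It fell with siINO80#1 and rose with siINO80#2 against the same NTG libraries, and the test of the difference between the siRNAs gave 1.79 ± 0.18 on the log2 scale (limma, adjusted p = 0.000193), with 3 of 3 siINO80#2 libraries above all 3 siINO80#1 libraries. The value ranged from 1.73 to 1.83 over the alternatives. The cause was not tested.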

How the results depend on the processing

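The number of members called was within 1.5 times the main count under every setting that left out no single library, except 1 for EPZ-6438: 12 to 19 for siINO80#1 (main 16), 13 to 19 for siINO80#2 (main 18), 16 to 21 and 19 to 23 for siMCRS1 in DMSO and in EPZ-6438 (main 19 and 23), and 5 to 7 for siINO80#2 against siINO80#1 (main 5). Leaving out 1 library gave 9 to 19 for siINO80#1, 15 to 21 for siINO80#2 and 4 to 9 between them, the last being highest without siINO80#2 B. All genes called then ranged from 4719 to 6920, from 6841 to 7721 and from 1948 to 3481. For siMCRS1 in DMSO and in EPZ-6438 it gave up to 20 and 24 members, against up to 7030 and 7600 genes. These are upper ends only. The lowest counts for siMCRS1, under the main 19 and 23, came where an omission left 1 library in a group. Counts from such fits are not given here. EPZ-6438 with siMCRS1 and the interaction gave 0 members under all alternatives run, and EPZ-6438 with NTG gave 0 under all but the block by column number, which gave 5. Over all tested members, comparisons and alternatives, 151 called values lost their call and 68 uncalled values gained one. TPI1 in siMCRS1 with EPZ-6438 was the only called value to reverse, to -0.05 under quantile normalization; the cause was not tested. With the replicate block the counts in the INO80 table were 17, 18 and 7. It added SLC2A3 with siINO80#1, and SLC2A1 (0.28) and SLC2A3 (-0.73) between the siRNAs, and changed no other call. The letters of siINO80#2 were not shown to pair with the others: same-letter deviations correlated at 0.095, -0.077 and 0.022 with NTG and 0.134, 0.004 and 0.102 with siINO80#1. In the MCRS1 and EPZ-6438 table the block by column number, chosen after seeing the data and fitted on the 8 numbered libraries, gave 21 members for siMCRS1 in DMSO, adding TPI1 (0.22), BNIP3 (-0.55) and P4HA2 (0.29) and losing VEGFA (0.31, limma, adjusted p = 0.0547), and it called 1161 genes for EPZ-6438 with NTG against 55 without the block. DMSO NTG shares only numbers 1 and 3 with the other groups (0.303 and 0.285 with siMCRS1, 0.221 and 0.303 with EPZ-6438 NTG), and its 2 libraries mirror each other. DMSO siMCRS1 and EPZ-6438 NTG gave 0.159, -0.017 and 0.207 for numbers 1, 2 and 3. Between numbers 1 and 3 of those 2 groups the values were -0.204 and -0.175. Whether the numbers pair the samples was not settled by these values. No paired analysis was possible for the comparisons with EPZ-6438 siMCRS1 because its columns carry letters. The interaction had no fit restricted to the groups compared, since it needs all 4 groups. LDHB in all libraries and CA9 in some were at or near the detection floor.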
